A study of Rattus norvegicus with 6 samples.

Results

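Voltage-gated calcium, sodium and potassium channels and their close relatives were followed in cultured brainstem cells, as a list of 49 channel genes. A probe was taken as a member when the platform annotation gave it 1 gene symbol and that symbol was on the list. This rule found 72 probes of 45 genes among the 33849 probes of the series, and all 72 had enough values to be tested. The inward rectifiers Kcnj3 and Kcnj4 and the calcium-activated channel genes Kcnmb4 and Kcnn2 had no probe with that single symbol and were not analysed here.

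Brainstem cells were cultured from 2 rat strains, the hypertensive SHR (spontaneously hypertensive rat) and the normotensive WKY (Wistar Kyoto), the strain being the difference the labels name. The labels give no treatment, no age of the rats and no days in culture. Each strain had 3 single-colour arrays, and the RNA of an array came from cells of 3 dishes put together. The submitters call the arrays independent biological replicates but name no litters or culture days, so the tests below measure the spread between these pools. Values are log2 of the submitters' quantile normalized intensity, and differences are SHR minus WKY with their standard error (SE) from limma.

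Voltage-gated channels open when the membrane potential changes. Sodium channels carry the upstroke of the action potential, calcium channels couple it to transmitter release and gene expression, and potassium channels end it and set the resting potential. Brainstem neurons with pacemaker activity use hyperpolarisation-activated (HCN) channels, T-type calcium channels and tandem-pore potassium channels, while astrocytes carry large potassium conductances through Kcnj10 and tandem-pore channels. In a mixed culture a probe reads the RNA of all cells together, so fewer cells of a type and less RNA per cell cannot be told apart.

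None of the 72 channel probes passed an adjusted p of 0.05 in limma, and 0 of all 33249 probes tested did (0%). An unadjusted p under 0.05 was found at 7 channel probes (9.72%), where 7.65% of all probes reached it. Of these 7, 3 lay higher in SHR (both probes of Kcnk2 and 1 of Kcnma1; 3.65% of all probes) and 4 lay lower (Kcna2, Kcnd2, Kcnc1 and Cacna1b; 4.01% of all probes). The count was 4 without SHR 3, where 5.46% of all probes reached this p, and 4 with unnormalized intensities, where 7.10% did. The 3 values of one strain lay wholly outside those of the other at 10 of 72 probes (13.9%), against 13.8% of all probes. By direction, 5 lay higher in SHR (6.35% of all probes) and 5 lower (7.48% of all probes). These shares are near the background, so the counts are no result about the channels as a group. The median difference of the 72 probes was -0.03, beside -0.01 over all probes, and no channel probe differed by 2-fold or more, as 2.14% of all probes did. In 10 of the 16 alternative fits between 1 and 5 channel probes did, 9 probes of 8 genes in all. The share of all probes at 2-fold was not counted in those fits, so these numbers say nothing about the channels as a group. Cacna1h and Kcnk9 reached 2-fold only with per-sample values of 17.2 and 7.19 units that were missing from the main fit.

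**Figure D1:**
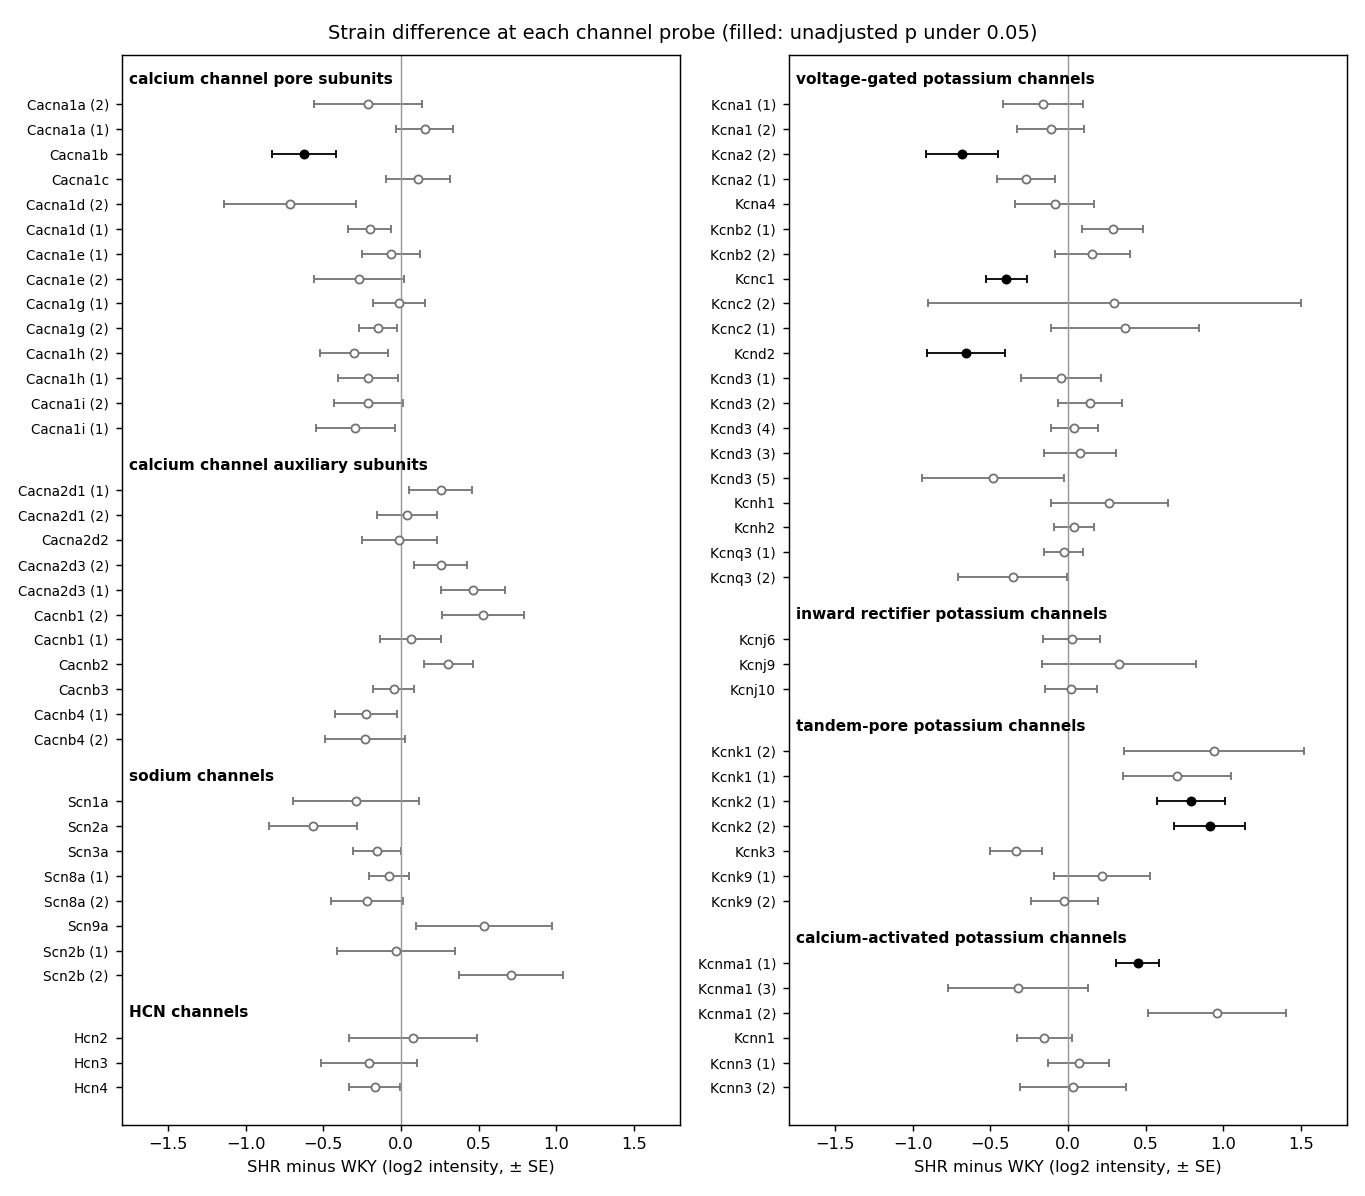
Difference between SHR and WKY in log2 intensity (horizontal axis, ± SE) at each of the 72 channel probes, grouped by channel class; where a gene has several probes they are numbered from the brightest. Filled points mark the 7 probes with an unadjusted p under 0.05, 3 of them to the right of 0 and 4 to the left.

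By class, the tandem-pore potassium channels had the highest median difference, 0.70 over 7 probes of 4 genes, with 5 probes above 0 and 2 below. Kcnk1 and Kcnk2 gave 4 of the 7 probes, and 6 probes of 6 tandem-pore genes outside the list had a median of -0.10. Of these 6 probes, 3 lay lower in SHR without overlap (7.48% of all probes did) and 0 higher (6.35% of all probes). The median of the listed genes was 0.41 without WKY 2 and 0.46 with the brightest probe of each gene. The pore subunits of calcium channels had the lowest, -0.21 over 14 probes of 8 genes, with 12 probes below 0 and 2 above (-0.14 without SHR 3, -0.12 with unnormalized intensities and -0.13 with the brightest probe of each gene). Sodium channels had a median of -0.11 over 8 probes, with 6 below 0, and HCN channels one of -0.17 over 3 probes. With unnormalized intensities these were -0.0010 and -0.034, the sodium median was -0.045 without WKY 3, and the HCN median was -0.042 without WKY 2 and -0.069 without SHR 3. Medians near 0 were seen for the auxiliary calcium channel subunits (0.06, 11 probes, but 0.22 with unnormalized intensities or without SHR 2, 0.15 without WKY 1, 0.14 without WKY 2, 0.13 without either SHR 1 or WKY 3 and 0.018 without SHR 3), the voltage-gated potassium channels (-0.04, 20 probes, and 0.10 with unnormalized intensities, 0.012 without SHR 2, -0.065 without WKY 3 and -0.095 without WKY 2), the inward rectifiers (0.02, 3 probes) and the calcium-activated potassium channels (0.05, 6 probes). Single arrays turned the sign of the last 3. The inward rectifier median ran from -0.051 without SHR 2 to 0.16 without SHR 3, and was 0.21 with unnormalized intensities. The calcium-activated median ran from -0.13 without WKY 2 to 0.24 without WKY 1. The class medians are descriptions with no test, and they stand beside 48.4% of all probes with a difference above 0. With unnormalized intensities the median of all probes was itself 0.12, against -0.01 in the main fit, so the unnormalized class medians are to be read beside 0.12.

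Cell type markers were read on the same arrays, to describe what the cultures held. Of 13 listed neuron markers 10 were measured, with 4 differences above and 6 below 0 and a median of -0.12. Their summed intensities were 29804 to 50578 units in SHR and 32856 to 47592 in WKY. Oligodendrocyte lineage markers had 10 of 11 differences below 0, a median of -0.76, and sums of 64079 to 114825 in SHR and 109098 to 125634 in WKY. SHR 2 was the highest SHR array of both lists. Fibroblast and meningeal markers had 5 of 6 differences above 0, a median of 1.35, and sums of 24686 to 30861 in SHR and 20374 to 25269 in WKY. Markers of ependyma and choroid plexus had 4 of 5 above 0, a median of 0.99, and sums of 9388 to 14835 in SHR and 3039 to 5562 in WKY, without overlap. Smooth muscle markers had 3 of 4 below 0 and a median of -0.30. Astrocyte markers had 5 of 8 below 0 and a median of -0.02, microglial markers 6 of 7 below 0 and a median of -0.09, and endothelial markers 2 of 4 below 0 and a median of 0.05. Only marker probes above 0 on all 6 arrays were used in these 8 lists. That the markers lay above 0 therefore does not describe the cultures. The part of cell make-up in the channel differences was not tested.

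**Figure D2:**
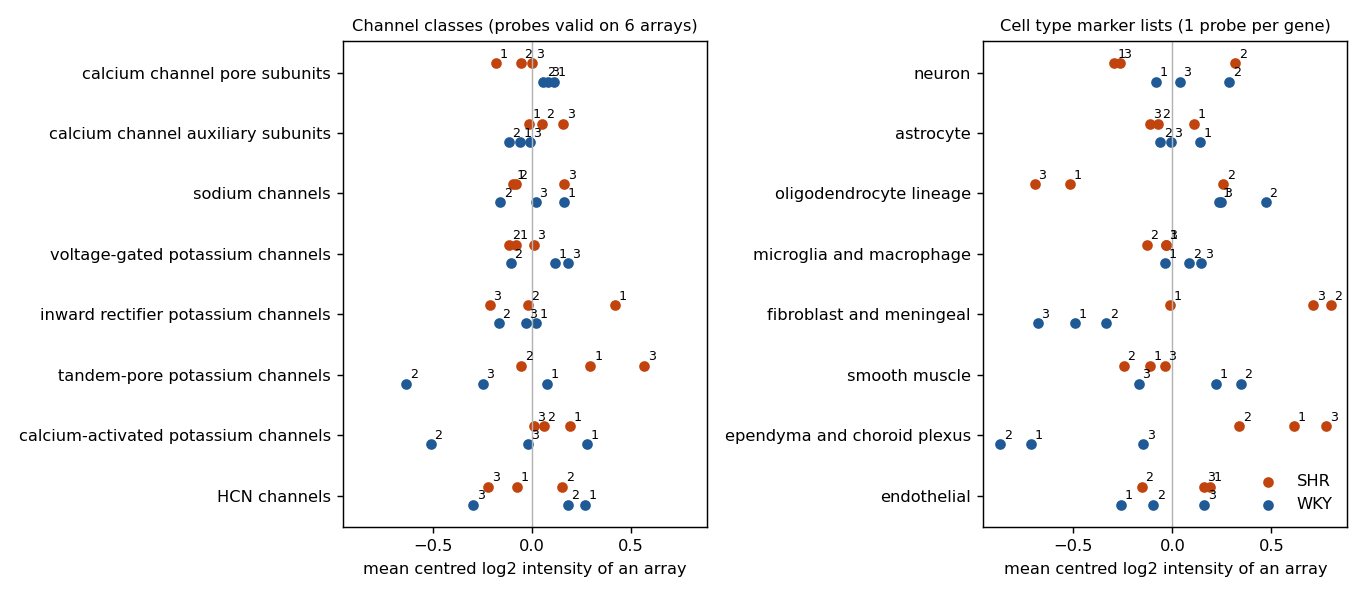
Array scores (horizontal axis: mean over a list of log2 intensities, each probe centred on its mean over 6 arrays) for the channel classes, over probes valid on all 6 arrays (left), and cell type marker lists (right), with replicate numbers beside the points. The calcium channel pore subunits of SHR lie at -0.18 to 0.00021 and those of WKY at 0.05 to 0.11. The scores of every other channel class overlap, the tandem-pore scores from -0.05 to 0.57 in SHR and -0.63 to 0.08 in WKY.

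Kcnk2 encodes a tandem-pore potassium channel that leaks potassium at rest and is opened by membrane stretch, fatty acids and warmth. Its brighter probe read 9.64, 9.81 and 10.35 in SHR 1 to 3 and 9.34, 9.09 and 8.98 in WKY 1 to 3. Its other probe read 9.97, 9.61 and 10.31 in the SHR arrays against 9.35, 8.95 and 8.84 in WKY. At both probes every SHR array lay above every WKY array, and SHR 3 was the highest. The differences were 0.79 ± 0.22 (1.73-fold, adjusted p = 0.538 in limma) and 0.91 ± 0.23 (1.88-fold, adjusted p = 0.526 in limma). Neither passed the adjusted threshold. Without single arrays they lay between 0.59 and 0.94 and between 0.74 and 1.09, and both probes kept an unadjusted p under 0.05 in each of the 16 alternative fits. Both probes were chosen by that p, and the fits reuse the same arrays, so this adds no separate support. Of the channel genes with several probes, Kcnk2 was the 1 gene with 2 probes at an unadjusted p under 0.05. Both probes carry the same pair of transcript accessions in the annotation, so they are 2 readings of 1 gene and not independent. Fibroblast and meningeal markers and markers of ependyma and choroid plexus also had array scores without overlap and higher in SHR. In the fibroblast and meningeal list 5 of 6 genes were higher in SHR. These were Slc6a13 (1.62 ± 0.34), Aldh1a2 (1.49 ± 0.14), Lum (1.46 ± 0.58), Dcn (1.24 ± 0.50) and Col1a2 (0.20 ± 0.16). Col1a1 differed by -0.02 ± 0.17. The summed intensities of that list overlapped, and Col1a1 and Col1a2 were its brightest probes, which weigh most in a sum. The part of both marker lists in the Kcnk2 difference was not tested.

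Kcnk2 and Kcna2, described further on, were the genes with several probes that all pointed one way and of which at least 1 had an unadjusted p under 0.05, and their promoter windows are printed for that reason. They are RefSeq sequences of the reference rat (build GRCr8), from 250 bases before to 50 bases after a transcript start, and were not read from SHR or WKY. The 6 motifs listed next were searched for on both strands and stand in capitals where found: the GC box GGGCGG, the TATA box TATAAA, the CCAAT box CCAAT, the cyclic AMP response element TGACGTCA, and the left part CAGCACC and right part GGACAG of RE1, the element of the neuronal gene repressor REST. None of these words overlap in the windows shown, though a CCAAT and a GGACAG adjoin in Kcna2.
Kcnk2, chr13:103438593-103438892, minus strand: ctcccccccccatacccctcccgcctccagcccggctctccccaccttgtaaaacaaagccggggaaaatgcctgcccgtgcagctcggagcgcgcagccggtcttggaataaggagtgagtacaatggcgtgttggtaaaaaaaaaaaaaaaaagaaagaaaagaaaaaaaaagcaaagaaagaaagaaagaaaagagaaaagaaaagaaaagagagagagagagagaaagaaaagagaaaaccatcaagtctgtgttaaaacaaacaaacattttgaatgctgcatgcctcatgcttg
Kcnk2, chr13:103494637-103494936, minus strand: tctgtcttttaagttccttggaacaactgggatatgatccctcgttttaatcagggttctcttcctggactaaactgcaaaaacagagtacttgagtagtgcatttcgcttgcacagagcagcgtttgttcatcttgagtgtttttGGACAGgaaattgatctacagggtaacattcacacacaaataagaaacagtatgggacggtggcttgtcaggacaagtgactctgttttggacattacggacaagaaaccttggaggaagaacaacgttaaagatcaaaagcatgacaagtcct
Kcna2, chr2:197393280-197393579, plus strand: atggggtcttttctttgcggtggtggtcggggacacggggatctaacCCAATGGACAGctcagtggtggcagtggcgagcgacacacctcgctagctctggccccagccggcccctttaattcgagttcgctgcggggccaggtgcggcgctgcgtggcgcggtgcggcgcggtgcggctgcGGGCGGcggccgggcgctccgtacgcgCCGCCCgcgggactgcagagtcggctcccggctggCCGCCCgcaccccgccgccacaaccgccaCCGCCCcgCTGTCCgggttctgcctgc
The windows of Kcnk2 were 44.3% and 41.7% G and C with 9 and 6 CG pairs, and the window of Kcna2 was 73.3% with 40. The first Kcnk2 window held none of the motifs and the second held 1 GGACAG, while the Kcna2 window held 4 GC boxes, 1 CCAAT and 2 GGACAG. The median over the 34 windows of 29 channel genes in the table was 71.0% G and C, against 51.7% over all 33469 windows. A GC box was in 19 of the 34 channel windows (55.9%) and in 33.1% of all, TATAAA in 0 and 14.2%, CCAAT in 9 (26.5%) and 37.5%, TGACGTCA in 0 and 1.83%, CAGCACC in 3 (8.82%) and 6.78%, and GGACAG in 7 (20.6%) and 21.7%. These are matches of letters in a window and not measured binding sites.

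The other tandem-pore channels did not share one pattern. Kcnk1, a widely expressed weak leak channel, read 12.23, 11.72 and 12.36 in the SHR arrays against 12.11, 10.87 and 11.22 in WKY at its brighter probe. At its other probe it read 8.82, 7.79 and 8.94 in the SHR arrays against 8.67, 6.52 and 7.54 in WKY. WKY 1 lay among the SHR arrays at both, and SHR 2 was the lowest of SHR at both. The differences were 0.70 ± 0.35 (adjusted p = 0.683 in limma) and 0.94 ± 0.58 (adjusted p = 0.716). They turned on single arrays, at 1.06 and 1.48 without WKY 1 and 0.43 and 0.41 without WKY 2. Kcnk3, an acid-sensitive background channel of brainstem neurons, lay the other way with 9.50, 9.05 and 9.54 in the SHR arrays against 9.64, 9.75 and 9.70 in WKY. Its groups did not overlap, yet the difference of -0.34 ± 0.17 had an adjusted p of 0.683 in limma and was -0.18 without SHR 2. Kcnk9, a near relative of Kcnk3, gave 0.22 ± 0.31 and -0.02 ± 0.21 at its 2 probes. The second lacks SHR 1, whose per-sample intensity was 7.19 units; with the per-sample intensities of all 6 arrays its difference was -0.86 ± 0.71 with quantile normalization and -1.22 ± 0.75 when median centred.

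Kcnma1 encodes the pore of the large-conductance channel that opens on depolarisation and calcium and brakes excitability in neurons and smooth muscle. Its brightest probe read 8.85, 8.91 and 9.06 in the SHR arrays against 8.51, 8.62 and 8.34 in WKY, with no overlap and a difference of 0.45 ± 0.14 (adjusted p = 0.569 in limma). A second probe read 7.45, 7.74 and 7.69 in the SHR arrays against 7.12, 5.59 and 7.27 in WKY, again without overlap, and its difference of 0.96 ± 0.44 was 0.43 without WKY 2. The dimmest probe read 6.96, 6.50 and 5.66 in the SHR arrays against 7.37, 5.98 and 6.74 in WKY, which overlap, with a difference of -0.32 ± 0.45. The last 2 probes were among the dimmest 25% of all probes tested. The 3 probes therefore did not give 1 direction.

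The small-conductance calcium-activated channels, which carry the afterhyperpolarisation, differed little. Kcnn3 read 9.07, 9.29 and 9.32 in the SHR arrays against 9.50, 8.84 and 9.14 in WKY at its brighter probe, the brightest of this class, and 7.86, 6.70 and 7.48 against 7.72, 6.92 and 7.30 at the other. The strains overlapped at both, with differences of 0.07 ± 0.20 and 0.03 ± 0.34. Kcnn1 differed by -0.15 ± 0.18.

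**Figure D3:**
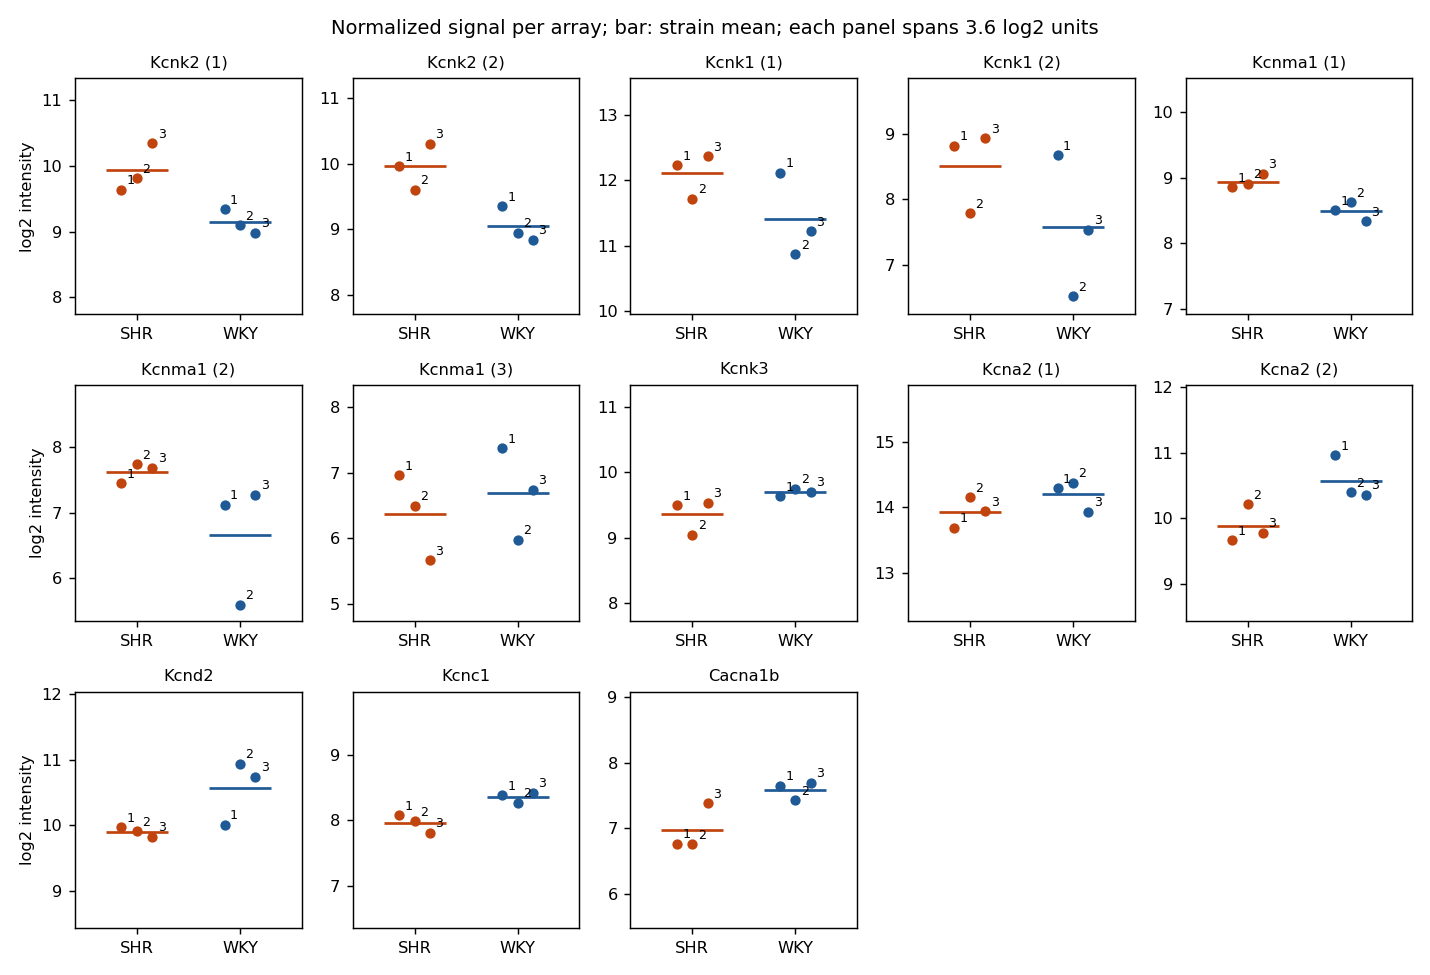
Log2 normalized intensity (vertical axis) on each of the 6 arrays at the probes of 8 channel genes, numbered from the brightest probe of a gene; digits are replicate numbers and bars are strain means. The strains do not overlap at both Kcnk2 probes, the Kcnma1 probes other than the dimmest and the dimmer Kcna2 probe. Nor do they at the single probes of Kcnk3, Kcnd2, Kcnc1 and Cacna1b. The genes were chosen from these values, and 13.8% of all probes had strains that did not overlap. WKY 1 lies among the SHR arrays at both Kcnk1 probes.

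Among the voltage-gated potassium channels, 3 of 20 probes had an unadjusted p under 0.05, all lower in SHR, where 7.65% of all probes had such a p and 4.01% were lower. Kcna2 forms a delayed rectifier of axons and nerve terminals. Its dimmer probe read 9.66, 10.22 and 9.78 in the SHR arrays against 10.96, 10.40 and 10.36 in WKY, with no overlap and a difference of -0.69 ± 0.23 (adjusted p = 0.585 in limma). Its brighter probe read 13.69, 14.16 and 13.94 in the SHR arrays against 14.29, 14.38 and 13.94 in WKY, where WKY 3 lay within the SHR range, with a difference of -0.27 ± 0.19. SHR 2 was the highest SHR array at both probes, as it was for the neuron and oligodendrocyte lineage markers. Of the WKY arrays, WKY 1 was the highest at the dimmer probe but the lowest for the neuron markers. WKY 2 was the highest at the brighter probe and for both marker lists. The part of these cells in the Kcna2 differences was not tested.

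Kcnd2, a pore subunit of the A-type current that delays firing in dendrites, read 9.97, 9.91 and 9.83 in the SHR arrays against 10.01, 10.93 and 10.74 in WKY. WKY 1 lay only just above SHR, and the difference of -0.66 ± 0.25 (adjusted p = 0.627 in limma) was -0.94 without WKY 1 and -0.47 without WKY 2. Kcnc1, a fast delayed rectifier of rapidly firing neurons, read 8.08, 7.99 and 7.81 in the SHR arrays against 8.38, 8.27 and 8.42 in WKY. The SHR arrays all lay below the WKY arrays, with a difference of -0.40 ± 0.13 (adjusted p = 0.575 in limma). Kcnd2 and Kcnc1 had 1 probe each, so no second probe could be set beside them.

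The remaining 16 probes of this class lay on both sides of 0. Kcnd3, the other Kcnd gene on the list, had 5 probes with differences from -0.49 ± 0.46 to 0.14 ± 0.21. Kcna1 (-0.16 ± 0.26 and -0.11 ± 0.21), Kcna4 (-0.09 ± 0.25), Kcnh1 (0.27 ± 0.38), Kcnh2 (0.04 ± 0.13) and Kcnq3, a subunit of the M current (-0.03 ± 0.12 and -0.36 ± 0.35) each differed by about its SE or less. Kcnb2 gave 0.29 ± 0.20 and 0.16 ± 0.24. Kcnc2, a relative of Kcnc1, was measured on 5 arrays at each of its 2 probes, and its SHR values at one of them ran from 4.95 to 8.93, so that its differences of 0.37 ± 0.48 and 0.30 ± 1.20 carry little information. With the per-sample intensities, where the missing entries were 29.1 and 23.1 units, they were 0.83 ± 0.55 and 0.95 ± 1.12 after quantile normalization.

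The inward rectifiers showed no separation. Kcnj10, the main inward rectifier of astrocytes, read 10.29, 10.56 and 10.42 in the SHR arrays against 10.12, 10.56 and 10.53 in WKY, a difference of 0.02 ± 0.17. Kcnj6 and Kcnj9 form channels opened by G proteins. Kcnj9 read 7.69, 5.97 and 6.0 in the SHR arrays against 6.69, 5.98 and 6.0 in WKY, where SHR 1 alone set the difference of 0.33 ± 0.50, which was -0.24 without it. Kcnj6 differed by 0.02 ± 0.18.

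Of the calcium channel pore subunits, Cacna1b had the smallest unadjusted p. It encodes the N-type channel, which admits calcium for transmitter release at nerve terminals. It read 6.77, 6.76 and 7.38 in the SHR arrays against 7.65, 7.43 and 7.70 in WKY. All SHR arrays lay below all WKY arrays, SHR 3 by a small margin, and the difference was -0.62 ± 0.21 (1.54-fold, adjusted p = 0.578 in limma). Cacna1b had 1 probe.

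Cacna1d, an L-type channel that supports pacemaking, had the largest difference of the class at a dim probe. That probe read 5.70, 7.0 and 5.96 in the SHR arrays against 6.72 and 7.15 in WKY 2 and WKY 3, with a difference of -0.71 ± 0.42. The entry of WKY 1 was not above 0 and was left out, and with the per-sample intensities, where it was 19.8 units, the difference was 0.16 with quantile normalization and 0.23 with cyclic loess. The other probe read 7.66, 7.67 and 7.69 in the SHR arrays against 7.67, 8.0 and 7.96 in WKY, a difference of -0.20 ± 0.14. Cacna1e, the R-type channel, read 8.62, 9.0 and 8.63 in the SHR arrays against 8.55, 9.05 and 8.84 in WKY at its brighter probe, which was the brightest of the class. At its other probe it read 6.93, 6.44 and 7.57 in the SHR arrays against 7.13, 7.43 and 7.20 in WKY. The strains overlapped at both, with differences of -0.06 ± 0.19 and -0.27 ± 0.29.

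The T-type channels Cacna1g, Cacna1h and Cacna1i, which open near rest and shape burst firing, had 6 probes, and all 6 differences were below 0, from -0.01 ± 0.17 to -0.30 ± 0.22. The difference nearest 0, at a probe of Cacna1g, changed sign in some alternatives, and the other 5 did not. The lowest value, at a dim Cacna1h probe, lacks SHR 3 (17.2 units), and with the per-sample intensities it was -0.90 ± 0.54 with cyclic loess and -1.16 ± 0.54 when median centred. None of the 6 had an unadjusted p under 0.05. Cacna1a, the P/Q-type channel, gave 0.15 ± 0.18 and -0.21 ± 0.35 at its 2 probes. The second lacks SHR 1 (24.97 units), and with the per-sample intensities it was -0.67 ± 0.48 with quantile normalization and -0.93 ± 0.46 when median centred. The L-type channel Cacna1c gave 0.11 ± 0.21.

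Auxiliary calcium channel subunits bring the pore to the membrane and tune its gating. Cacnb1 read 7.69, 8.02 and 7.91 in the SHR arrays against 7.44, 7.80 and 6.80 in WKY at its dimmer probe, a difference of 0.53 ± 0.27 with WKY 2 inside the SHR range, and 0.26 without WKY 3. At its brighter probe it read 11.99, 12.43 and 12.34 in the SHR arrays against 12.36, 12.34 and 11.88 in WKY, which overlap, with a difference of 0.06 ± 0.20. Cacnb2 read 8.68, 8.76 and 8.82 in the SHR arrays against 8.51, 8.18 and 8.64 in WKY, without overlap, and differed by 0.31 ± 0.16 (adjusted p = 0.689 in limma), or 0.18 without WKY 2. Cacna2d3, an alpha2delta subunit, gave 0.46 ± 0.21 and 0.26 ± 0.17. Cacna2d1, the subunit bound by gabapentin, gave 0.26 ± 0.20 and 0.04 ± 0.19. Cacnb4 lay the other way at both of its probes, at -0.22 ± 0.20 and -0.23 ± 0.26, and Cacnb3 (-0.05 ± 0.13) and Cacna2d2 (-0.01 ± 0.24) differed little.

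Sodium channels had no probe with an unadjusted p under 0.05 and none whose strains did not overlap. Scn8a, the main sodium channel of nodes and axon initial segments and the brightest probe of the class, read 10.92, 10.86 and 10.67 in the SHR arrays against 10.82, 10.92 and 10.94 in WKY. Its other probe read 6.91, 6.57 and 6.33 in the SHR arrays against 6.75, 6.53 and 7.19 in WKY. The differences were -0.08 ± 0.13 (0.11 with unnormalized intensities) and -0.22 ± 0.23. Scn2b, an auxiliary subunit, read 7.14, 7.23 and 7.71 in the SHR arrays against 7.32, 6.08 and 6.56 in WKY at one probe, with a difference of 0.71 ± 0.34 that was 0.42 without WKY 2 and 1.04 without WKY 1. It read 7.82, 6.60 and 7.45 in the SHR arrays against 7.54, 6.76 and 7.66 in WKY at the other, with a difference of -0.03 ± 0.38. The strains overlapped at both probes, which differed in sign. Scn2a, a channel of unmyelinated axons, differed by -0.57 ± 0.28 (-0.30 without SHR 1), Scn9a by 0.54 ± 0.44 (0.17 without SHR 3 and 0.98 without SHR 2), Scn1a by -0.29 ± 0.41 and Scn3a by -0.15 ± 0.16.

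HCN channels carry the pacemaker current. Hcn4, the brightest probe of the class, read 9.94, 9.92 and 9.69 in the SHR arrays against 9.84, 10.27 and 9.95 in WKY, a difference of -0.17 ± 0.16 (0.025 with unnormalized intensities). Hcn3 read 7.18, 7.60 and 6.41 in the SHR arrays against 7.46, 7.14 and 7.22 in WKY, a difference of -0.21 ± 0.31 that was 0.12 without SHR 3. The strains overlapped at both, and Hcn2 differed by 0.08 ± 0.41.

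Of the 45 channel genes, 23 had several probes tested, and at 18 of them (78.3%) all probes differed in the same direction, against 57.3% of the 3618 named genes with several probes on the array. The 5 with probes of both signs were Cacna1a, Scn2b, Kcnd3, Kcnk9 and Kcnma1. No test was made of these shares, since probes of a gene can share sequence and arrays.

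**Figure D4:**
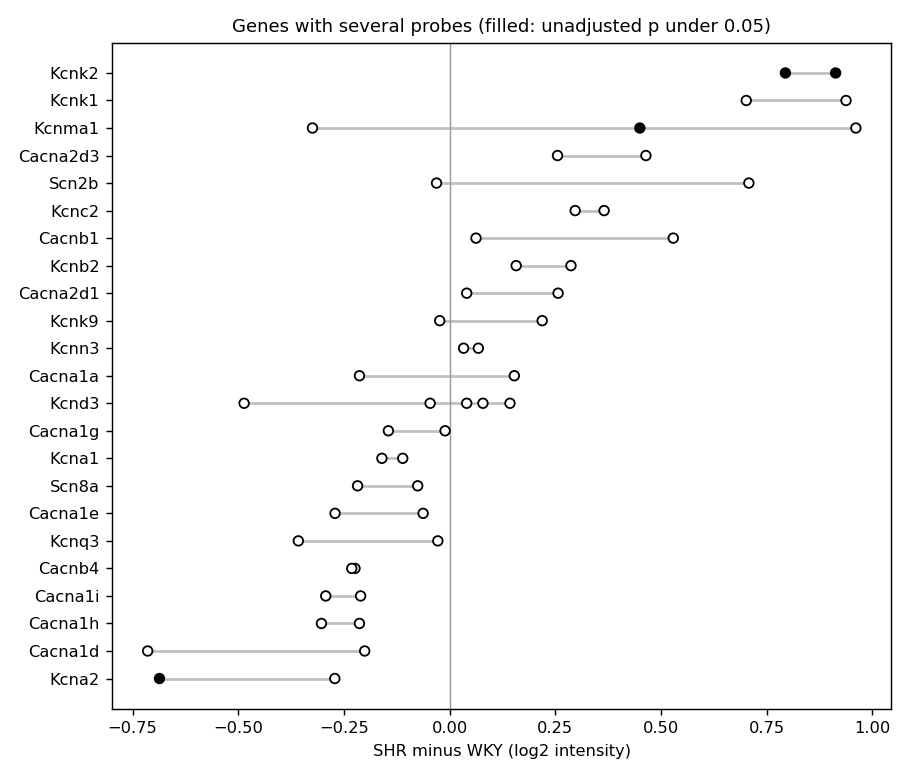
Difference between SHR and WKY in log2 intensity (horizontal axis) at each probe of the 23 channel genes with several probes, joined by a line per gene. Filled points have an unadjusted p under 0.05, and at 18 genes all points lie on one side of 0.

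A further 93 genes of channel pores and accessory subunits outside the list gave 91 probes of 69 genes. Of these probes 7 lay higher and 5 lower in SHR at an unadjusted p under 0.05 (13.2%, where 7.65% of all probes did), 0 passed the adjusted threshold, and the median difference was -0.07. The 6 genes with the smallest p included partners of the channels described above. Kcnmb1, the smooth muscle partner of Kcnma1, differed by 0.88 ± 0.14 at a dim probe. Kcnip3 and Kcnip1, calcium-binding partners of Kcnd2 and Kcnd3, differed by -0.72 ± 0.14 and 0.87 ± 0.21, in opposite directions. Fgf11, an intracellular partner of sodium channels, differed by -0.92 ± 0.27, also at a dim probe. Kcnk6, a tandem-pore channel, differed by -0.48 ± 0.16, and Scn4b, an auxiliary sodium channel subunit, by 0.59 ± 0.20 and 0.46 ± 0.18 at 2 probes. Dissimilar values came from the other probes of Kcnmb1 (-0.54 ± 0.52), Kcnip3 (0.25 ± 0.31) and Kcnip1 (0.19 ± 0.16).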

How the data were processed

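RNA from cultured brainstem cells was hybridised to CodeLink rat arrays, 3 pools per strain. According to the series' design text, the authors extracted intensity values with the background removed, dropped spots near the negative controls and applied quantile normalization. Software versions were not stated in what was read here. The deposited intensity comes as per-sample tables without normalization (array medians 439 to 571 units) and as the series table (median 520 on every array), which was used. In each of its columns 615 entries are not above 0 and were set to missing, while -9999, taken as a missing code, marks 171 to 233 values of a per-sample table. Missing entries touched 6 channel probes on 1 array each, with per-sample intensities of 7.19 to 29.1 units and never the code, so dim values were lost there. Pearson's r over probes was 0.969 to 0.979 within and 0.964 to 0.977 between strains. The number of arrays limits the precision.

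Log2 intensities were tested with limma 3.58.1 in R 4.3.3 (lmFit and eBayes, two-sided), with Benjamini-Hochberg adjustment over the 33249 probes that had all 3 values for a strain and 2 or more for its counterpart. The procedure was tested on simulated data. The platform annotation gave 1 symbol to 16753 probes. Plots used matplotlib 3.10.9.

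The members and gene lists were chosen with earlier results of these data known. Values on every array are given for probes with an unadjusted p under 0.05, for the brightest probe and the largest difference of each class, and for other probes of those genes. Of other channel genes the 6 with the smallest p are named, and of marker genes list counts are given. Cacnb2 and Kcnk3 were added after their values were seen, because their strains did not overlap. Alternatives covered normalization, probe filters, an offset of 50 units, the variance model, array weights, a replicate block and each array left out.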

Additional observations from a re-analysis of the deposited data

How the results depend on the processing

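The 7 channel probes with an unadjusted p under 0.05 kept their direction in all 16 alternative fits. Their strains did not overlap, so only the normalization alternatives could have turned it, and the other fits are no check of direction. No channel probe passed an adjusted p of 0.05 in any of the 16 (lowest adjusted p 0.316 in limma, Kcnd2 without WKY 1). An unadjusted p under 0.05 held in 17 of 17 fits for both Kcnk2 probes, 15 for Kcnma1, 13 for Cacna1b, 12 for Kcna2 and Kcnc1 and 10 for Kcnd2. These 7 probes were chosen by this p in the main fit, which is 1 of the 17. The other fits reuse its arrays, and the same count over all probes was not made, so these numbers add no support. Over all 72 channel probes, 37 kept their direction throughout and 35 did not, 17 of them under a normalization alternative. The count of all probes past the threshold was 0 and became 5 with probes valid on all 6 arrays, 18 without the dimmest 25%, 1 with an offset of 50 units, 28 with an intensity trend and robust prior, 5 with array weights and 13 at an adjusted p of 0.10; it was 0 without each array. Channel probes with an unadjusted p under 0.05 numbered 7 (7.65% of all probes), 4 with unnormalized intensities (7.10% of all) and 4 to 8 without single arrays, where the share of all probes ran from 5.46% without SHR 3 to 10.8% without WKY 1. Unnormalized intensities moved the median of all probes from -0.01 to 0.12 and the class medians of calcium channel pores to -0.12, auxiliary subunits to 0.22 and voltage-gated potassium channels to 0.10, and split all probes with an unadjusted p under 0.05 into 1542 higher and 846 lower, against 1212 and 1333 (904 and 1786 when median centred). With the brightest probe per gene the pore median was -0.13. Without single arrays it lay between -0.23 and -0.14, and the auxiliary median between 0.018 and 0.22. Directions turned for the dim Cacna1d probe (0.15 unnormalized, 0.16 with quantile and 0.23 with cyclic loess on the per-sample intensities, 0.15 with an offset), Cacna1e (0.079), Scn8a (0.11) and Hcn4 (0.025) unnormalized, and Kcnj10 with array weights (-0.030). Without single arrays, Cacna1e ranged from -0.20 to 0.055, the bright Cacnb1 probe from -0.10 to 0.19, Kcnj9 from -0.24 to 0.62, Kcnj10 from -0.12 to 0.10, Kcnn3 from -0.094 to 0.24 and Hcn3 from -0.47 to 0.12. The causes were not tested, except that the Cacna1d change follows the 1 value missing from the series table. When same-numbered arrays formed a replicate block, 0 probes passed, 8 channel probes had an unadjusted p under 0.05 (6 higher, 2 lower, where 8.42% of all probes did, 4.11% higher and 4.31% lower), and the medians were 0.70 for tandem-pore channels, -0.20 for calcium channel pores, 0.06 for auxiliary subunits, -0.11 for sodium, -0.04 for voltage-gated potassium, 0.02 for inward rectifier and 0.05 for calcium-activated channels and -0.17 for HCN channels. Deviations of same-numbered arrays correlated at 0.0011, 0.22 and -0.13, and 2 of 6 arrays correlated best with their own number, so the numbers are not taken to pair the samples. Dim signal limits 18 of the 72 probes, whose median SE was 0.36, against 0.20 for the others.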
